A study of Mus musculus with 8 samples.

Results

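The interleukin 1 and 18 receptor genes are 6 related genes that lie side by side on mouse chromosome 1: Il1r2, Il1r1, Il1rl2, Il1rl1, Il18r1 and Il18rap. They were taken by name, as 6 of the 779 genes with a full row in the deposited table. The RNA of single cells was counted on the 10x droplet platform, in stomach glands of Atp4bCre; Rosa26NICD; Arid1aflox/flox mice at 23 weeks of age. Cre is driven by the promoter of Atp4b, a proton pump subunit gene of parietal cells, and it switches on the intracellular domain of Notch and deletes the floxed part of Arid1a, a chromatin remodelling gene. Cells were sorted for high EPCAM, an epithelial surface protein, and for low uptake of a dead-cell dye. All 8 labelled samples share this genotype and age and the cell barcodes carry no sample number, so no genotype was compared and the table counts as 1 pooled sample.

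Receptors of this family carry immunoglobulin domains outside the cell and, except for the decoy receptor, a TIR domain inside it that passes the signal through MYD88 to NF-kappaB. Il1r1 encodes the signalling receptor of IL-1, and Il1r2 encodes the decoy that binds IL-1 without signalling. Il1rl2 and Il1rl1 encode the receptors of IL-36 and IL-33. Il18r1 and Il18rap encode both chains of the IL-18 receptor, the first binding the cytokine and the other completing the signalling complex. In the stomach IL-1 is known as an inhibitor of acid secretion and as a driver of inflammation-linked tumours. Ccl20 encodes a chemokine that epithelia are known to release in answer to IL-1. Gsta3 encodes a glutathione transferase.

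A total of 1388 of 1460 barcodes had 100 or more unique molecular identifiers (UMIs, each standing for 1 captured RNA molecule) and were kept. They held 439743 UMIs, with a median of 286 per barcode, quartiles of 203 and 399 and a range of 100 to 1082. Of the 779 gene symbols, 711 matched a gene on chromosome 1, the only chromosome searched. The totals thus cover a part of the genes and are not library depth, and every level below is relative to them. Levels are given in CPM, the UMIs of a gene per 1000000 UMIs of the table, with an exact Poisson 95% interval. Intervals cover counting error only, since cells are not replicates. No barcode occurred more than once. Doublets were not called, so a barcode with several of the genes may hold more than 1 cell, and leaving out the deepest 5% of barcodes was tried instead.

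All 6 genes lie on the plus strand within 477.6 kb (GRCm38, GENCODE vM21). Il1r2 (ENSMUSG00000026073.13) occupies chr1:40074079-40125231 and Il1r1 (ENSMUSG00000026072.12) chr1:40225080-40317257. Il1rl2 (ENSMUSG00000070942.8) follows at chr1:40324610-40367562 and Il1rl1 (ENSMUSG00000026069.15) at chr1:40429570-40465415. Il18r1 (ENSMUSG00000026070.15) lies at chr1:40465552-40500854 and Il18rap (ENSMUSG00000026068.11) at chr1:40515362-40551705. Only 136 bases separate the end of Il1rl1 from the start of Il18r1. The sodium/proton exchanger genes Slc9a4 and Slc9a2 come next, 28.4 kb and further downstream, and the kinase gene Map4k4 lies 47.8 kb upstream. No other protein-coding gene overlaps a member. The antisense gene Gm16894 overlaps Il1r2 and had 1 UMI. Whether reads were counted by strand was not stated in the labels.

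The bases before the start sites of the 3 most abundant members and of Ccl20 are shown because these genes carry the comparisons below. They come from RefSeq (GRCm38.p6), plus strand, and end at the base before the first annotated start site. Capitals mark matches to any of 5 motifs searched on both strands: the NF-kappaB motif, the AP-1 motif TGANTCA, the RBPJ motif TGGGAA, the STAT motif TTCNNNGAA and the TATA box TATAAA. RBPJ is the DNA-binding partner of the Notch intracellular domain. The Il18r1 stretch is the whole gap to Il1rl1.
Il1r1 (chr1:40224830-40225079): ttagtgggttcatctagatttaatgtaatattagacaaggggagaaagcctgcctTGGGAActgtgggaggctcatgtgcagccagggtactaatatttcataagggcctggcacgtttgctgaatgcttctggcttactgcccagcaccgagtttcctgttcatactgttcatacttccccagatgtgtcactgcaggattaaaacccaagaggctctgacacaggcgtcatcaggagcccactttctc
Il18r1 (chr1:40465416-40465551): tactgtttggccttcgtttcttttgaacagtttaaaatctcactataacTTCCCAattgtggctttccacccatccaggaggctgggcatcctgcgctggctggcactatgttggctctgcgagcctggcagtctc
Il18rap (chr1:40515112-40515361): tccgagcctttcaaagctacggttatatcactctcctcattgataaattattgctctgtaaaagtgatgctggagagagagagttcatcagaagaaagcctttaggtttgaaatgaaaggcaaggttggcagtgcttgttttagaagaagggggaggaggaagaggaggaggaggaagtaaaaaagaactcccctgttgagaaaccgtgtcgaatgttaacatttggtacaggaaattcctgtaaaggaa
Ccl20 (chr1:83116516-83116765): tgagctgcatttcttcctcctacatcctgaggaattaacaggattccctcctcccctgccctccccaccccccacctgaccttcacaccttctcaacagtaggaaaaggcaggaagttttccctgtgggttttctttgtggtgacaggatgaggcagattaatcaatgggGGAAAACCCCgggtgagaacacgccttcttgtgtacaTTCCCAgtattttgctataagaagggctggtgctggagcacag

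Il1r1 had an RBPJ match starting 195 bases before its start site, and Il18r1 had one on the minus strand 87 bases before. Il18rap had no match to any of the 5 motifs. Ccl20 had an NF-kappaB match at 80 bases and an RBPJ match at 43 bases before its start site, both on the minus strand, with no overlap between them. RefSeq lists further start sites for Il1r1 and Il18r1. Before the second of Il1r1 there was an NF-kappaB match at 232 bases. Before the third of Il18r1 there were RBPJ matches at 216 and 152 bases and STAT matches, which read the same on both strands, at 219 and 152 bases, overlapping the RBPJ matches. Over all 32851 windows of 250 bases in the table, 21.6% held the RBPJ motif, 7.25% the NF-kappaB motif, 6.75% the AP-1 motif, 7.02% the STAT motif and 12.4% the TATA box. Over windows of 136 bases, 11.9% held the RBPJ motif. These matches are letters in a window and no binding was measured.

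Of the 6 genes, 3 were detected in more than 80 barcodes. Il18r1 had 400 UMIs in 329 barcodes, 23.7% of those kept (21.5 to 26.0), a level of 909.6 CPM (823 to 1003). Il1r1 had 357 UMIs in 252 barcodes, 18.2% (16.2 to 20.3), a level of 812 CPM (730 to 901). Their intervals overlap, so the order of these levels is within counting error. Il18rap followed with 98 UMIs in 83 barcodes, 5.98% (4.79 to 7.36), at 223 CPM (181 to 272).

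The other 3 receptor genes were rare. Il1r2 had 28 UMIs in only 12 barcodes, 0.865% (0.448 to 1.5), at 63.7 CPM (42.3 to 92.0). Il1rl2 had 4 UMIs in 4 barcodes, at 9.10 CPM (2.48 to 23.3). Il1rl1, the IL-33 receptor gene, had 0 UMIs in all 1388 barcodes, which allows a level of up to 6.82 CPM and a share of up to 0.216% of barcodes with a UMI. The intervals of Il1rl2 and Il1rl1 overlap, and those of the other neighbours in this order, from Il1r1 down to Il1rl2, do not. A UMI marks a molecule and not a length of RNA, so levels were not divided by gene length, and differences in capture between genes were not measured. The gene next to Il1rl1, only 136 bases on, was the most abundant member.

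**Figure D1:**
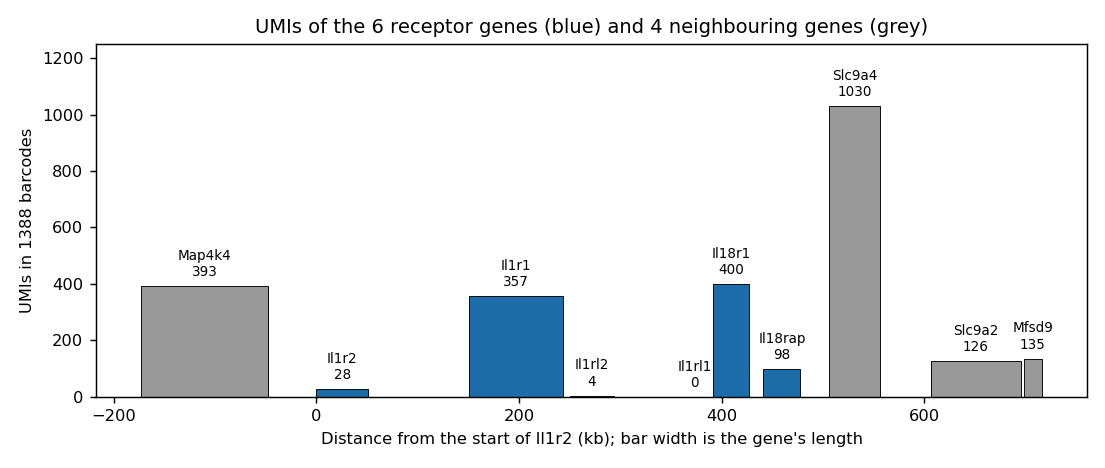
UMIs of the 6 receptor genes (blue) and of 4 neighbouring genes (grey) in the 1388 kept barcodes, against distance from the start of Il1r2 in kb, with bar width the length of the gene. From left to right the members are Il1r2 (28), Il1r1 (357), Il1rl2 (4), Il1rl1 (0), Il18r1 (400) and Il18rap (98).

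Most barcodes with a member held a single UMI of it. Il18r1 had 1 UMI in 272 barcodes, 2 in 47 and 3 or more in 10, with at most 4. Il1r1 had 1 UMI in 186 barcodes, 2 in 40 and 3 or more in 26, with at most 7. Il18rap had 1 UMI in 71 barcodes, 2 in 9 and 3 in 3. Il1r2 was the exception among the rare genes, with 16 of its 28 UMIs in 3 barcodes.

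Detection and level moved with depth. Barcodes with Il1r1 had a median of 345 UMIs, against 277 in those without, and the medians were 325 against 276 for Il18r1 and 419 against 282 for Il18rap. In barcodes of 100 to 200, 200 to 400 and 400 or more UMIs, Il1r1 stood at 309.6, 989.7 and 752 CPM. Il18r1 stood at 1180, 975 and 757 CPM in the same bins, and Il18rap at 116, 179 and 304 CPM. Il1r1 was thus lowest in the shallow barcodes, with an interval (177 to 503) that overlapped neither other bin. Il18r1 was highest there (903 to 1516), with an interval that overlapped the middle bin (845 to 1119) but not the deep one (636 to 895). Il18rap was highest in the deep barcodes, but its interval (229 to 396) overlapped those of both other bins. With every barcode thinned to 100 UMIs, 8.14% held Il18r1, 6.99% Il1r1 and 2.02% Il18rap.

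**Figure D2:**
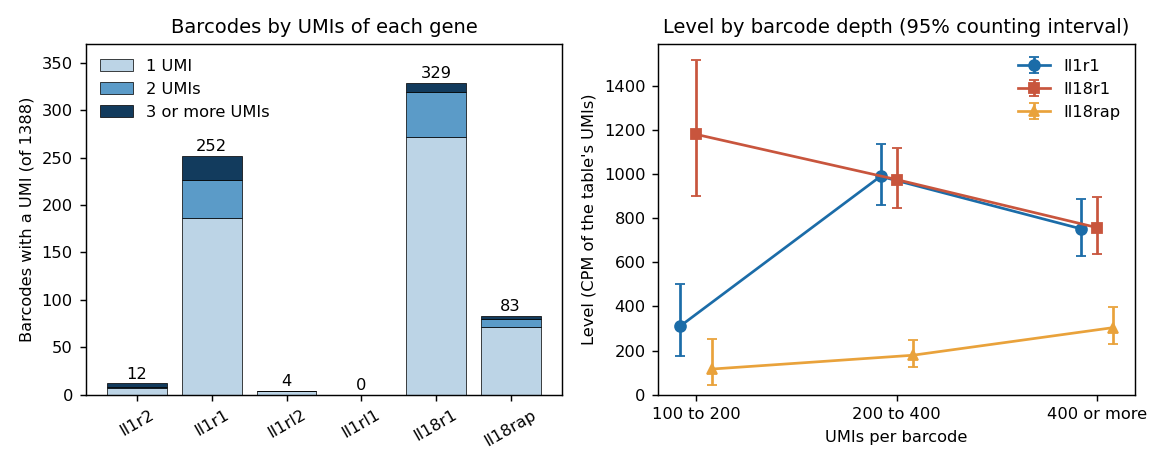
Left, number of the 1388 kept barcodes with 1, 2 or 3 or more UMIs of each receptor gene. Right, level of the 3 most abundant members in CPM by UMIs per barcode, with 95% Poisson intervals. Il1r1 is lowest in the shallowest barcodes, and Il18rap is highest in the deepest, with overlapping intervals.

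The sort should leave few blood cells, which are known to carry these receptors, and their markers were checked. Of 9 measured blood cell markers (Cd28, Ctla4, Icos, Zap70, Stat4, Slc11a1, Cxcr1, Cxcr2 and Inpp5d) Cxcr1 was at 0, and together they had 93 UMIs in 49 barcodes. Il1r1 had 2 UMIs in these 49 barcodes, 156 CPM, against 832 CPM in the other 1339, a ratio of 0.187 (0.0225 to 0.680), with medians of 238 and 288 UMIs. It was found in 4.08% of the 49 (0.498 to 14.0) and in 18.7% of the rest. Il18rap had 1 UMI there. Il18r1 was at 1244 CPM in these barcodes and at 899.7 CPM in the rest, a ratio of 1.38 (0.782 to 2.28). Of its 400 UMIs, 384 lay outside them, but the 49 barcodes held only 12954 of the 439743 kept UMIs. Outside this marker list, the cytokine genes Il17a and Il17f had 12 and 2 UMIs. Each was found in only 1 of the 329 barcodes with Il18r1 (0.304%) and in no barcode without it. Whether these UMIs came from a blood cell was not tested. The fibroblast and muscle markers Col3a1, Col5a2 and Des had 1 UMI each. Of the epithelial markers, Vil1 had 1696 UMIs and Slc9a4 1030, while Epcam and the main gastric mucus, pepsinogen and proton pump genes are not analysed here. Il1r1, Il18r1 and Il18rap were thus measured mostly in barcodes without a UMI of these markers, at levels of 832, 899.7 and 227 CPM there. The share of barcodes that free RNA alone would give was not measured.

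Il1r1 went with Gsta3, with the retinol dehydrogenase gene Rdh10 and with both exchanger genes next to the receptor genes. Barcodes with an Il1r1 UMI had Gsta3 at 19454 CPM, against 12053 CPM in barcodes without, 1.61 times as high (1.53 to 1.70). Gsta3 was found in 87.7% of the 252 barcodes with Il1r1 (83.0 to 91.5) and in 69.3% of the 1136 without (66.5 to 71.9). By depth, the Gsta3 ratio was 1.43 (0.952 to 2.08), 1.51 (1.39 to 1.64) and 1.58 (1.46 to 1.71) from the shallowest to the deepest bin. The intervals of Gsta3 overlapped between barcodes with 1 Il1r1 UMI and those with more, at 19408 CPM (18382 to 20476) with 1 and 19571 CPM (17945 to 21305) with 2 or more.

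Rdh10, which encodes an enzyme of retinoic acid synthesis, was at 10870 CPM in barcodes with Il1r1 and at 7620 CPM in those without, a ratio of 1.43 (1.33 to 1.53). It stood at 7620, 9682 and 13880 CPM in barcodes with 0, 1 and 2 or more Il1r1 UMIs. Slc9a4 encodes an exchanger known from the basolateral membrane of parietal cells. It was at 3066 CPM in barcodes with Il1r1 and at 2142 CPM in those without, a ratio of 1.43 (1.25 to 1.64). Its ratio was 1.75 (1.46 to 2.10) in barcodes of 200 to 400 UMIs and 1.2 (0.943 to 1.52) in those of 400 or more, and 1.19 (0.977 to 1.45) outside the 25% of barcodes richest in Gsta3. Slc9a2, an exchanger gene of mucous and other epithelial cells, was at 468 CPM with Il1r1 and at 236 CPM without, a ratio of 1.98 (1.34 to 2.89). With 2 or more Il1r1 UMIs Slc9a2 reached 844.5 CPM (535 to 1267).

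Ccl20 was at a lower level in barcodes with Il1r1, at 613 CPM against 1227 CPM in those without, a ratio of 0.50 (0.374 to 0.658). It was found about as often, in 9.52% of barcodes with Il1r1 (6.20 to 13.8) and in 10.5% of those without (8.76 to 12.4). Without the 3 barcodes richest in Ccl20, all of them free of Il1r1, the ratio was 0.658 (0.489 to 0.870). It was 0.509 (0.351 to 0.719) in barcodes of 200 to 400 UMIs and 0.660 (0.387 to 1.08) in those of 400 or more.

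Among 239 other genes with at least 50 UMIs, 10 (4.18%) were 1.5-fold or more higher in barcodes with Il1r1 with an interval that excludes 1, and 13 (5.44%) were lower. The lower count was 7 with 200 or more UMIs per barcode and 5 thinned. Neither Il18r1 nor Il18rap was among them. The highest ratios were those of the intestinal alkaline phosphatase gene Alpi (3.48, 2.69 to 4.50), the secretory granule gene Ptprn (3.15, 2.14 to 4.64), Slc23a3 (2.53, 1.68 to 3.78) and Xkr9 (2.38, 1.28 to 4.33). Slc9a2, the Wnt receptor gene Fzd5 (1.82, 1.47 to 2.26), the granule gene Resp18 and the sterol hydroxylase gene Cyp27a1 (1.78, 1.16 to 2.70) followed. Alpi had 70 of its 122 UMIs in 3 of the barcodes with Il1r1 and stayed at 2.79 (2.02 to 3.85) without its 3 richest barcodes. Resp18 had 24 of 25 UMIs in 3 barcodes and was at 0.973 (0.174 to 3.68) without the 3 barcodes richest in it overall. Thinned to 100 UMIs, where 1 or 2 UMIs of each were left with Il1r1, the direction turned for Ptprn (0.690, 0.0807 to 2.67), Xkr9 (0.897, 0.0213 to 5.83) and Cyp27a1 (0.816, 0.0948 to 3.19). The lowest ratios were those of Igfbp2 (0.0615, 0.00153 to 0.356), Sgk3 (0.210, 0.0419 to 0.649), Myl1, Igfbp5 (0.370, 0.197 to 0.642) and Kansl1l (0.450, 0.238 to 0.787). Igfbp2 and Igfbp5 encode binding proteins of insulin-like growth factors. Myl1, at 0.214 (0.0427 to 0.662), was at 0.762 (0.140 to 2.73) without its 3 richest barcodes. By residual correlation over 1388 barcodes the genes most like Il1r1 were Rdh10 (0.166), Slc9a4 (0.163), Slc9a2 (0.163), Gsta3 (0.121) and Idh1 (0.106). All of these correlations are weak, and the points share 1 pooled library.

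**Figure D3:**
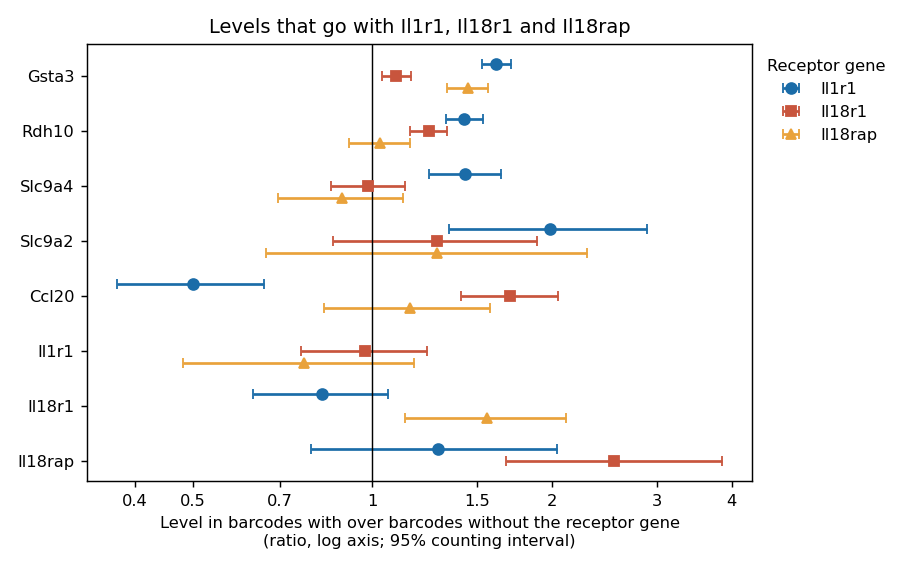
Ratio of the level of each gene on the y axis in barcodes with a UMI of Il1r1, Il18r1 or Il18rap to its level in barcodes without, on a log axis, with 95% counting intervals. Gsta3, Rdh10, Slc9a4 and Slc9a2 lie above 1 for Il1r1 and Ccl20 below 1, while Il18r1 and Il18rap lie above 1 for each other.

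Each chain of the IL-18 receptor was found more often in barcodes that held the other chain. Il18rap had a UMI in 38 of the 329 barcodes with Il18r1, 11.6% (8.31 to 15.5), and in 4.25% of the 1059 without (3.12 to 5.64). Its level was 402 CPM with Il18r1 and 158 CPM without, a ratio of 2.54 (1.67 to 3.85). The ratio was 3.21 (1.59 to 6.48) in barcodes of 200 to 400 UMIs and 2.07 (1.17 to 3.64) in those of 400 or more. The shallowest barcodes held 6 Il18rap UMIs in all, too few to place it (1.07, 0.0226 to 9.57). In the 25% of barcodes richest in Gsta3 the ratio was 1.47 (0.690 to 3.01), and in the others 3.49 (2.04 to 6.01). Seen from the other side, Il18r1 was found in 45.8% of the 83 barcodes with Il18rap (34.8 to 57.1) and in 22.3% of the 1305 without (20.1 to 24.7). The ratio of its levels was 1.03 (0.513 to 1.89) in the 25% richest in Gsta3 and 1.88 (1.30 to 2.66) in the others. Il18rap increased over barcodes with 0, 1 and 2 or more Il18r1 UMIs, at 158 CPM (118 to 208), 367 CPM (256 to 510) and 557 CPM (288 to 973), though the last intervals overlap.

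For Il1r1 with the IL-18 receptor genes, the intervals of both ratios included 1. Il18r1 was at 779 CPM in barcodes with Il1r1 and at 947 CPM in those without, a ratio of 0.823 (0.632 to 1.06). It was found in 25% of barcodes with Il1r1 and in 23.4% of those without. For Il18rap the ratio was 1.29 (0.789 to 2.04), but it was 0.227 (0.0264 to 0.882) in barcodes of 200 to 400 UMIs and 1.92 (1.08 to 3.38) in those of 400 or more. Without the deepest 5% of barcodes it was 0.517 (0.214 to 1.08), so the direction rests on the deepest barcodes. Of the 1388 barcodes, 836 held none of the 3 genes, 178 held Il1r1 alone, 236 Il18r1 alone and 34 Il18rap alone. Il18r1 and Il18rap were together in 30 without Il1r1, and all 3 genes were together in 8 barcodes, whose median of 615 UMIs was far above the 259.5 of barcodes with none.

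Gsta3 differed by less than 1.5-fold with either IL-18 receptor gene. It was at 14623 CPM in barcodes with Il18r1 and at 13331 CPM in those without, a ratio of 1.10 (1.04 to 1.16) that was 0.885 (0.810 to 0.966) in barcodes of 200 to 400 UMIs. Barcodes with Il18rap had Gsta3 at 19041 CPM and those without at 13184 CPM, a ratio of 1.44 (1.33 to 1.56). That ratio was 1.33 (1.14 to 1.54) in barcodes of 200 to 400 UMIs and 1.41 (1.27 to 1.55) in those of 400 or more.

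Ccl20 was at 1565 CPM in barcodes with Il18r1 and at 921 CPM in those without, a ratio of 1.70 (1.40 to 2.05). Of the 183 Ccl20 UMIs found with Il18r1, 97 lay in 3 barcodes. Without the 3 of all kept barcodes that were richest in Ccl20 the ratio was 1.07 (0.843 to 1.34). Ccl20 was found in 10.3% of barcodes with and in 10.3% of those without Il18r1. The direction of the Ccl20 ratio with Il18r1 differed by Gsta3. In the 347 barcodes richest in Gsta3 it was 0.297 (0.1489 to 0.5399), from 12 UMIs with Il18r1 and 110 without. In the other barcodes it was 2.53 (2.05 to 3.13). Ccl20 was found about as often with as without Il18r1 in both sets. The shares were 9.52% and 10.3% in the Gsta3-rich barcodes and 10.6% and 10.3% in the others. Neither ratio was computed without the barcodes richest in Ccl20. Whether a few such barcodes set these directions was thus not tested. With Il18rap the Ccl20 ratio was 1.16 (0.830 to 1.57), and it was 2.11 (1.41 to 3.04) in barcodes of 200 to 400 UMIs and 0.930 (0.476 to 1.68) in those of 400 or more.

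For Il18r1, 9 of 239 genes (3.77%) were 1.5-fold or more higher and 6 (2.51%) lower. The lower count was 0 with 200 or more UMIs per barcode and 1 thinned. Il18rap had the highest ratio of all of them. Sgol2, a protector of chromosome cohesion (1.96, 1.08 to 3.49), Ptprn, 1700066M21Rik (1.84, 1.10 to 3.04), Tm4sf20 (1.79, 1.47 to 2.17), 2810408I11Rik (1.73, 1.11 to 2.65), Ccl20 and Slc23a3 (1.60, 1.05 to 2.42) followed. Ptprn, at 1.89 (1.27 to 2.80), was at 1.18 (0.705 to 1.91) without its 3 richest barcodes. The lowest ratios were those of Resp18 (0.334, 0.138 to 0.698), Inpp5d (0.368, 0.128 to 0.864), Cyp27a1 (0.589, 0.339 to 0.974), the transcription factor gene Klf7 (0.603, 0.443 to 0.808) and the polarity gene Pard3b (0.636, 0.402 to 0.974). Resp18 turned to 3.67 (1.12 to 12.8) without its 3 richest barcodes. Without the 3 barcodes richest in the gene, the intervals also included 1 for Sgol2 (1.63, 0.840 to 3.07), 1700066M21Rik (1.67, 0.961 to 2.83), Slc23a3 (1.34, 0.844 to 2.09), Inpp5d (0.50, 0.171 to 1.21) and Cyp27a1 (0.629, 0.361 to 1.05). Thinned to 100 UMIs, the direction turned for Ptprn (0.285), Slc23a3 (0.543), Inpp5d (1.07) and Klf7 (1.13). The genes most like Il18r1 by residual correlation were the autophagy gene Atg9a (0.0963), Il18rap (0.0916), the DNA repair gene Xrcc5 (0.0901), Rdh10 (0.0898) and Tm4sf20 (0.0895).

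For Il18rap, 7 of 239 genes (2.93%) were higher and 14 (5.86%) lower. The lower count was 9 with 200 or more UMIs per barcode and 1 thinned. Myl1 (10.8, 6.03 to 19.1) led, but its 26 UMIs there all lay in 3 barcodes, and the ratio was 1.5 (0.166 to 6.44) without the 3 barcodes richest in Myl1 overall. Alpi was 3.05 times as high (2.21 to 4.15) and 5.31 times (3.76 to 7.43) without its 3 richest barcodes. Mars2 (2.03, 1.06 to 3.62), Tmem237 (1.86, 1.02 to 3.18), the end-joining gene Nhej1 (1.86, 1.00 to 3.24) and the cytoskeletal linker gene Dst (1.60, 1.05 to 2.36) followed, with Il18r1 (1.56, 1.13 to 2.11) and Gsta3. The lowest were Cyp27a1 (0.104, 0.00262 to 0.594), Resp18 (0.153, 0.00382 to 0.880), AI597479 (0.194, 0.0232 to 0.718), Igfbp5 (0.230, 0.0468 to 0.684) and Pard3b (0.319, 0.0857 to 0.835), on 1 to 4 UMIs each in barcodes with Il18rap. Without the 3 barcodes richest in the gene, the intervals included 1 for Resp18 (0.858, 0.0202 to 5.71), Mars2 (1.55, 0.716 to 3.02) and Tmem237 (1.38, 0.665 to 2.58). Thinned to 100 UMIs, Mars2 and Tmem237 had 0 UMIs with Il18rap, and with 2 or more Il18rap UMIs Nhej1 was at 0.639. Alpi (0.144), Idh1 (0.0961), Il18r1 (0.0916), the glycosyltransferase gene Mgat4a (0.0858) and Gsta3 (0.0833) were most like Il18rap by residual correlation.

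Summed markers of other cell types were compared in the same way, and an interval that includes 1 leaves the direction unset. The endocrine markers (Ptprn, Resp18 and Scg2, 200 UMIs in all) summed to 883 CPM in barcodes with Il1r1 and to 335 CPM in those without, a ratio of 2.64 (1.97 to 3.52), and their ratio was 1.02 (0.732 to 1.40) with Il18r1, where Ptprn was higher and Resp18 lower, and 0.713 (0.362 to 1.27) with Il18rap. The enterocyte markers Vil1 and Alpi stood at 1.40 (1.27 to 1.55) with Il1r1, 1.09 (0.984 to 1.2) with Il18r1 and 1.5 (1.30 to 1.72) with Il18rap. The DNA replication and division genes (Mcm3, Sgol2, Hjurp, Prim2 and Bard1, 861 UMIs) stood at 0.746 (0.621 to 0.892) with Il1r1, 1.33 (1.15 to 1.54) with Il18r1 and 1.02 (0.789 to 1.30) with Il18rap. The tuft cell markers Inpp5d and Ptpn18 (997 UMIs) stood at 0.867 (0.738 to 1.01) with Il1r1, 0.817 (0.702 to 0.949) with Il18r1 and 0.728 (0.552 to 0.944) with Il18rap. Cells of these kinds and the amount of RNA per cell cannot be told apart here, and their part in the ratios of single genes was not tested. Whether these sums rest on a few barcodes was not tested for the sums themselves. Among the endocrine genes with Il1r1, Resp18 had 24 of 25 UMIs in 3 barcodes and was at 0.973 without its 3 richest. Scg2 was found in only 2 of all kept barcodes. Ptprn had 22 of 53 UMIs in 3 barcodes and was at 4.13 (2.63 to 6.51) without its 3 richest. Without the 3 barcodes richest in the gene, Mcm3 with Il18r1 moved from 1.402 (1.114 to 1.758) to 1.197 (0.9362 to 1.521). Prim2 with Il18r1 moved up, from 1.279 to 1.336 (0.8336 to 2.097). Ptpn18 held 946 of the 997 tuft marker UMIs. Without its 3 richest barcodes it was at 0.8157 (0.6168 to 1.061) with Il18rap and at 0.8048 (0.6837 to 0.9439) with Il18r1.

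Other genes of the pathway were read beside all 239 genes compared. Of 50 listed genes of IL-1 and IL-18 signalling 9 had a row, and 6 of these had at least 50 UMIs, among them Ccl20, the caspase gene Casp8, its regulator Cflar, the RNA-binding protein gene Arid5a and Map4k4. With Il1r1, 0 of the 6 were higher and 1 (Ccl20) lower, where 4.18% and 5.44% of all genes were, with a median log2 ratio of -0.10 against -0.00515 over all genes compared. With Il18r1, 1 (Ccl20) was higher and 0 lower, where 3.77% and 2.51% of all genes were, with a median of 0.0804 against 0.0363. With Il18rap, 0 were higher and 0 lower, where 2.93% and 5.86% of all genes were, with a median of 0.0700 against -0.0142. A count of 0 or 1 among 6 genes is not read as a difference from those shares. Cflar had ratios of 0.996, 0.994 and 0.974 with Il1r1, Il18r1 and Il18rap, and Casp8 1.09, 1.06 and 0.963. Stat4 (9 UMIs) and the chemokine receptor gene Cxcr2 (7 UMIs) had 0 UMIs in barcodes with Il1r1 and 4 each in barcodes with Il18r1. Of the 4 neighbouring genes compared, Slc9a2 passed 1.5-fold with Il1r1 and none did with Il18r1 or Il18rap. Map4k4 lay at 1.03, 1.06 and 1.02 and Mfsd9 at 0.771, 0.892 and 0.704.

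Il1r2 lay mostly in barcodes with UMIs of Inpp5d or Ptpn18 and few of epithelial genes. Of its 12 barcodes, 3 also held Il1r1, 1 held Il18r1 and 1 held Il18rap. They held 6, 6, 4, 3 and 2 UMIs of it in 5 cases and 1 UMI in the other 7, with totals of 105 to 391 UMIs. A UMI of Inpp5d, an inositol phosphatase gene best known from blood cells and also listed for tuft cells, was present in 6 of the 12, 50% (21.1 to 78.9), against 22 of the 1376 others, 1.60% (1.00 to 2.41). These 6 barcodes held 18 of the 28 Il1r2 UMIs. The tyrosine phosphatase gene Ptpn18 reached 3 or more UMIs in 7 of the 12, 58.3% (27.7 to 84.8), against 4.14% of the others (3.15 to 5.33).

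Epithelial genes were sparse in the same barcodes. The actin-bundling gene Vil1 had a UMI in 2 of the 12 barcodes, 16.7% (2.09 to 48.4), against 61.9% of the others (59.3 to 64.5). Gsta3 had one in 4 of 12, 33.3% (9.92 to 65.1), against 73.0% (70.5 to 75.3). The 5 barcodes with 2 or more Il1r2 UMIs held 0 UMIs of Gsta3, Vil1, Slc9a4 and Ccl20. One of them, with 117 UMIs in all, held 4 UMIs of Icos, 2 of Zap70, 1 of Cd28 and 2 of Il18r1, where the first 3 are T cell genes. Another, with 160 UMIs, held 2 of Cxcr2, known from neutrophils. The median total was 214 UMIs in barcodes with Il1r2 and 286.5 in those without.

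All genes were also compared for Il1r2, a comparison added after its barcodes had been seen. Of 240 genes, 20 (8.33%) were 1.5-fold or more higher and 8 (3.33%) lower in the 12 barcodes. Besides Inpp5d (41.3, 18.5 to 83.9), the highest ratios belonged to the kinase genes Sgk3 (21.2, 7.41 to 49.6) and Stk17b (17.2, 10.8 to 26.2), and to Ankrd44 (11.6, 4.56 to 24.8) and Rnf149 (9.86, 4.64 to 18.6). The actin nucleation gene Arpc2 was at 45754 CPM in barcodes with Il1r2 and at 19182 CPM in those without. Gsta3 was at 4265 CPM with Il1r2 against 13719 CPM without, and the chaperonin gene Hspd1 at 4653 CPM against 10434 CPM. Without the 49 barcodes with a blood cell marker, 8 Il1r2 UMIs were left, a level of 18.7 CPM (8.09 to 36.9). These values do not tell which cell type the barcodes are, and no name was given to them.

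**Figure D4:**
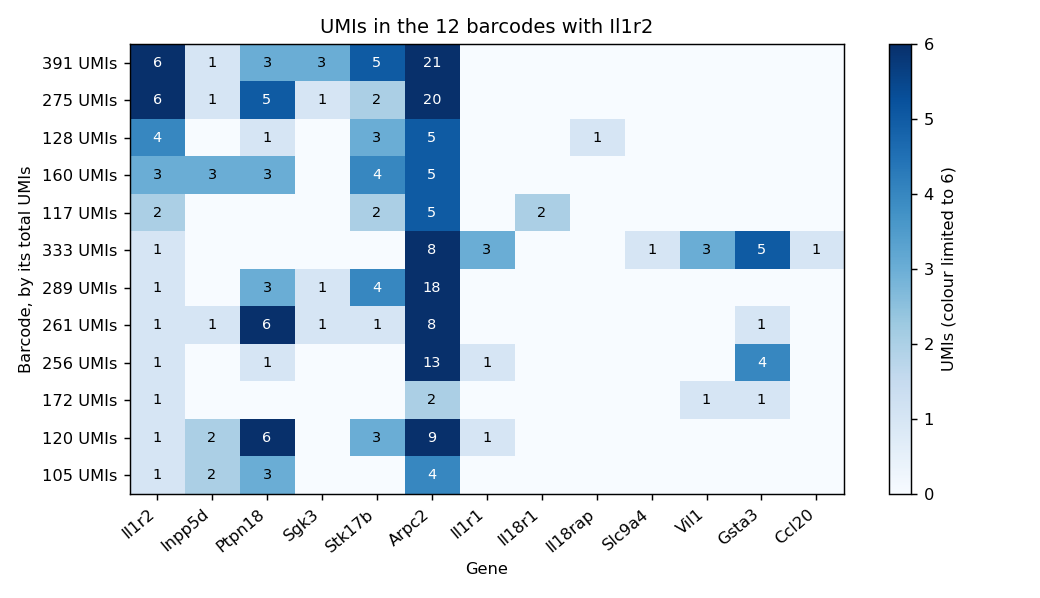
UMIs of 13 genes (columns) in the 12 barcodes with Il1r2 (rows, labelled by total UMIs and ordered by Il1r2 UMIs), with empty cells at 0 and colour limited to 6 UMIs. The upper 5 barcodes hold Stk17b and Arpc2 but no Vil1, Gsta3, Slc9a4 or Ccl20.

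Il1rl2 had 1 UMI in each of 4 barcodes, with totals of 366, 600, 624 and 637 UMIs. Of these, 2 also held Il1r1 and 3 held Gsta3, among them 1 barcode with 31 Gsta3 UMIs. The remaining barcode held 0 Gsta3 and 5 Ccl20 UMIs. At 4 UMIs no comparison was made for this gene.

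Where the members lay was also read from barcodes set apart by other genes. The same barcodes and UMIs as above are counted here from the other side, so this is not separate evidence. Of 32 ratios (8 barcode groups by 4 members), 9 were 1.5-fold or more higher and 4 lower with an interval that excludes 1. These groups are ranges of UMI counts and not cell types, and the percentages below are the share of 239 genes that passed the same limits in each group.

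The 25% of barcodes richest in Gsta3 (347 barcodes, above 1.78% of UMIs, with 161 barcodes within 20% of that limit) had Il1r1 at 1232 CPM, against 675 CPM elsewhere, a ratio of 1.82 (1.47 to 2.27). Il18rap was 1.68 times as high (1.08 to 2.56), Il18r1 was at 0.946 times (0.748 to 1.19), and Il1r2 had 0 UMIs against 28, a ratio of 0 (0 to 0.389). In that group 4.18% of genes were higher and 5.44% lower. The 621 barcodes with Slc9a4 had Il1r1 1.98 times (1.59 to 2.48) and Il18rap 1.61 times (1.06 to 2.48) as high as those without, and held 1 Il1r2 UMI against 27. There 2.51% of genes were higher and 2.93% lower.

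The 213 barcodes with 2 or more UMIs of the small GTPase gene Arl4c had Il1r1 1.66 times as high (1.28 to 2.12), at 1217 CPM against 735 CPM elsewhere, and Il1r2 3.33 times (1.41 to 7.53), from 4 barcodes. There 4.6% of genes were higher and 7.53% lower. In the 110 barcodes with 2 or more UMIs of the fibronectin gene Fn1, Il1r1 was at 0.597 times (0.349 to 0.957) its level elsewhere, where 3.77% of genes were higher and 5.44% lower. In the 43 barcodes with Sgol2, Il1r1 was at 0.376 times (0.150 to 0.782), and Il1r2 was higher from 1 barcode with 6 UMIs, where 7.53% of genes were higher and 10.5% lower. The Sgol2 group was deep, with a median of 460 UMIs against 282.

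Barcodes with 2 or more Alpi UMIs (29) had Il18rap 4.74 times as high (2.42 to 8.55), with 13 of 98 UMIs, and 5.44% of genes were higher and 5.86% lower there. This group was deep too, with a median of 501 UMIs against 283, and Il18rap was highest in deep barcodes, though with overlapping intervals. The part of depth in this ratio was not tested. In the 69 barcodes with 2 or more Ccl20 UMIs no member passed the limits: Il1r1 was at 0.872 times (0.493 to 1.44), Il18r1 at 0.927 times (0.552 to 1.47) and Il18rap at 1.88 times (0.832 to 3.73), where 2.09% of genes were higher and 3.35% lower. The 64 barcodes with 3 or more Ptpn18 UMIs had 19 of the 28 Il1r2 UMIs, 42.4 times the level elsewhere (18.3 to 106), where 7.53% of genes were higher and 4.18% lower. Il1r1, Il18r1 and Il18rap did not pass there. Among the 28 barcodes with Inpp5d, a group added later, Il1r2 was 96.6 times as high (42.3 to 234), where 10% of genes were higher and 5.02% lower. The Il1r2 UMIs of the Ptpn18 and Inpp5d groups lay in the same 7 and 6 barcodes described above.

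**Figure D5:**
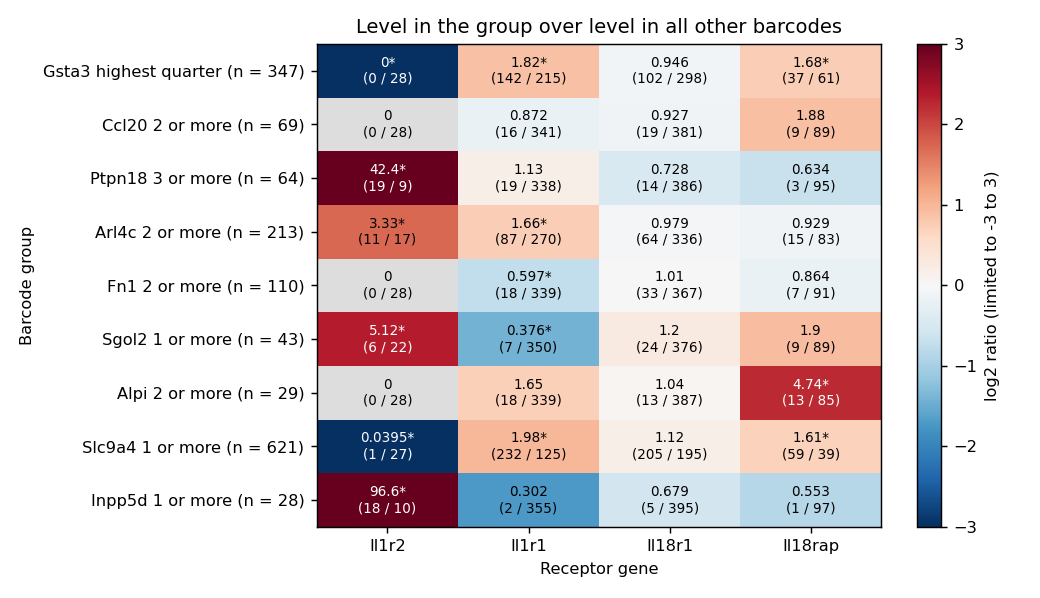
Level of 4 receptor genes in each barcode group over their level in all other barcodes, coloured by log2 ratio limited to -3 to 3, with UMIs in the group and outside it in parentheses and an asterisk where the 95% interval excludes 1. Cells with 0 UMIs in the group and an interval that includes 1 are grey, and Il1r2 stands at 42.4 in the Ptpn18 group while Il18r1 lies between 0.679 and 1.2 in every group.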

How the data were processed

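The authors deposited raw counts, whole numbers per gene symbol and cell barcode, in 1 table. The counts were read as UMIs, which the labels do not state. Cell Ranger, Seurat 2.3.0 and the mm10 build were listed in the submitters' processing notes. Filters applied before deposit and the annotation used are not given in the sources. The number of value columns not used was 0. One row cut short, with no value above 0, was left out, and 711 of 779 symbols matched GENCODE vM21 on chromosome 1. The 3 most abundant genes held 40.3% of the kept UMIs, so levels move with them.

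Barcodes with 1 or more UMIs of a member were set against those with 0, for members in at least 20 barcodes, with the member left out of the totals. Ratios have exact conditional binomial intervals and shares exact Clopper-Pearson intervals, at 95%, for counting error only. With 1 pooled sample there is no test and no p-value. Genes with at least 50 UMIs were compared, and the Inpp5d group and the comparison by Il1r2 were chosen after seeing the data. Named were all members, the listed genes, the 8 highest and 5 lowest ratios whose interval excludes 1, and the 5 highest correlations of Pearson residuals (overdispersion parameter 100, limit 10). The members and lists were chosen with earlier results of these data known. One gene of the pathway list is not reported here by name. Ratios were checked on simulated Poisson counts. These hold no extra spread between barcodes, so the effect of UMIs piled up in a few barcodes was not checked. Of 64 genes raised 2-fold with Il1r1, 79.7% were called higher. Of 123 genes left unchanged, 0% were called higher and 4.07% lower. Levels there were rescaled by 1.206 to keep the totals, so the ratios to be found were lower than the set folds. Python 3.11.15, numpy 2.4.6, scipy 1.17.1, pandas 2.3.3 and matplotlib 3.10.9 were used. Alternatives were other barcode filters, other totals, thinning to 100 UMIs, depth bins and stricter detection.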

Additional observations from a re-analysis of the deposited data

Results flagged for a closer look

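A further 72 barcodes lay below 100 UMIs and entered no comparison. In them Il18r1 reached 793 CPM (216 to 2031), from 4 UMIs among 5043, where 0 UMIs would have set a limit of 595 CPM, taken as 3 UMIs. In the kept barcodes Il18r1 was at 909.6 CPM. Il1r1 had 2 UMIs there, Il1rl2 had 1, and Il1r2, Il1rl1 and Il18rap had 0, none above that limit.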

How the results depend on the processing

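No paired analysis was possible because barcodes carry no sample number. All alternatives are counts within 1 pooled library, and thinning is a single random draw that leaves few UMIs of the rarer genes. The ratio of Il18rap with Il18r1 stayed between 1.07 and 3.52, that of Gsta3 with Il1r1 between 1.43 and 1.66, and that of Ccl20 with Il1r1 between 0.348 and 0.660. In all, 161 of the values that answer a comparison stayed within their interval or count limit, 43 moved and 4 turned, where a ratio counts as turned only if its own interval excluded 1 before the change. The causes of the changes below were not tested.

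With totals that leave out the 3 ribosomal protein genes, levels were 107 CPM for Il1r2, 1359 for Il1r1, 1523 for Il18r1 and 373 for Il18rap. Il1r2 was at 41.2 CPM with 200 or more UMIs per barcode, 108 thinned and 18.7 without barcodes with a blood marker (an alternative chosen after seeing the data), and Il1rl2 at 0 thinned. Gsta3 with Il1r1 was 1.43 and 1.51 in barcodes of 100 to 200 and 200 to 400 UMIs. Gsta3 with Il18r1 turned to 0.979 thinned, 0.958 with 2 or more Il18r1 UMIs and 0.885 in barcodes of 200 to 400 UMIs, and moved to 1.26 and 1.22 in the shallow and deep bins. Gsta3 with Il18rap was 1.19 thinned, 1.59 with 2 or more UMIs, 1.33 in the middle bin and turned to 0.957 in the shallow one. Ccl20 with Il1r1 was 0.348 in the shallow bin, 0.660 in the deep bin and 0.658 without its 3 richest barcodes. Ccl20 with Il18r1 was 2.61 thinned, 4.14 in the shallow bin, 1.07 without its 3 richest barcodes and 2.53 without the 25% richest in Gsta3. Ccl20 with Il18rap was 1.62 thinned, 0.264 with 2 or more UMIs, 0 in the shallow bin, 2.11 in the middle bin and 0.827 without the 25% richest in Gsta3.

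Il18r1 with Il1r1 was 0.313 in the shallow bin. Il18rap with Il1r1 was 0.517 without the deepest barcodes, 0.70 with 2 or more UMIs, 0 in the shallow bin and 0.227 in the middle one. Il18rap with Il18r1 was 1.07 in the shallow bin. Genes lower with Il1r1 numbered 7 with 200 or more UMIs and 5 thinned, against 13. Genes lower with Il18r1 numbered 0 with 200 or more UMIs, 3 without the deepest barcodes, 1 thinned and 12 with no minimum per gene beyond 1 UMI, against 6. Genes lower with Il18rap numbered 9 and 1, against 14, with 200 or more UMIs and thinned. Thinned, 4 ratios of members by barcode group were higher and 0 lower. Ratios of single genes that turned when thinned were, with Il18r1, Inpp5d (1.07), Klf7 (1.13), Ptprn (0.285) and Slc23a3 (0.543), with Il18rap, Mars2 and Tmem237 (0 each), and with Il1r1, Cyp27a1 (0.816), Ptprn (0.690), Resp18 (0) and Xkr9 (0.897). Il1r2 with Sgol2 and Il18rap with Alpi turned to 0 and Il18rap with Slc9a4 to 0.826, also thinned. With 2 or more UMIs of the member, Ptprn with Il18r1 turned to 0.447, Nhej1 with Il18rap to 0.639 and Resp18 with Il1r1 to 0. With 200 or more UMIs per barcode, Resp18 turned to 3.42 with Il18r1 and to 0.857 with Il1r1.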

Other observations

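Arl4c differed in direction between the receptor genes. It was at 3336 CPM in barcodes with Il1r1 and at 2148 CPM in those without, a ratio of 1.55 (1.36 to 1.77). With Il18r1 its ratio was 0.800 (0.690 to 0.926), and with Il18rap 0.612 (0.458 to 0.804), at 1522 CPM against 2486 CPM. Whether these ratios differ from each other was not tested. The isocitrate dehydrogenase gene Idh1 was 1.28 times as high with Il1r1 (1.18 to 1.38) and 1.27 times with Il18rap (1.13 to 1.42). Vil1 was 1.2 times as high with Il1r1 (1.07 to 1.34), 1.14 with Il18r1 (1.02 to 1.26) and 1.30 with Il18rap (1.11 to 1.52). Hspd1 was at 0.959 times with Il1r1 (0.892 to 1.03), and at 1.17 times with Il18r1 (1.10 to 1.25) and 1.26 times with Il18rap (1.14 to 1.39).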
